A study of Mus musculus with 12 samples.

Results

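The nuclear genes of oxidative phosphorylation encode the subunits of the 4 respiratory complexes and of the ATP synthase (complex V) that are made in the cytosol and imported into mitochondria. They were chosen by symbol from probe sets with exactly 1 annotated gene: symbols starting Nduf followed by a, b, c, s or v and a number, Cox4 to Cox8, Uqcr, Sdha to Sdhd, and Atp5, without pseudogenes and assembly factors. This gave 81 genes of 19938 tested: 33 of complex I, 4 of complex II, 8 of complex III, 19 of complex IV and 17 of complex V. Each gene is represented by the probe set with its highest mean over all arrays. Genes were assigned by prefix, except that Ndufa4 and Ndufa4l2 were counted with complex IV, because the Ndufa4 protein, named for complex I, has since been placed in complex IV. Ndufb4 and Cox7c have only probe sets that name several genes and are not among the 81.

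The cells were macrophages grown from the bone marrow of C3H/HeN mice. Per the labels' protocols, non-adherent marrow cells were expanded with IL-3, IL-6 and stem cell factor in L-cell conditioned medium, a source of M-CSF, and then matured without the added cytokines. They were left unstimulated, or received lipopolysaccharide (LPS, a Toll-like receptor 4 ligand from the Gram-negative outer membrane) at 100 ng/ml for 45 or 270 min. In the 35 min before harvest 200 µM 4-thiouridine was present, a uridine analogue that marks newly made RNA for biotin coupling and bead purification. RNA purified in this way is called nascent RNA here, and the extract it was purified from total RNA. The 2 fractions and 3 times make 6 groups with 2 arrays each, 1 from each of 2 independent experiments, and the same unstimulated arrays served both times.

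Electrons from NADH enter the respiratory chain at complex I and those from succinate at complex II, pass through complex III to complex IV, where oxygen is reduced, and the proton gradient built on the way drives ATP synthesis by complex V. Most subunits are nuclear encoded, and a few core subunits of complexes I, III, IV and V are encoded by mitochondrial DNA. Activated macrophages are known for a shift of energy metabolism from respiration towards glycolysis and for using complex II and succinate in inflammatory signalling. NRF1, the ETS factor GABP and YY1 are known regulators of promoters of this gene class.

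Promoter windows of 300 bases, from 250 before to 50 after the RefSeq start (GRCm38.p6), were found for 66 of the 81 genes, 71 windows in all. 3 motifs were searched on both strands: GCGCATGC, the core of the NRF1 site, CCGGAAG, an ETS site as bound by GABP, and AAGATGGCG, a YY1 site. The NRF1 core was in 10 of the 71 windows (14.1%), against 2.71% of all 32851 windows and 3.78% of the 19177 windows of tested genes. The ETS site was in 17 (23.9%), against 8.86% and 12.1%, and the YY1 site in 7 (9.86%), against 1.4% and 1.94%. At least 1 of the motifs was in 28 genes, and the NRF1 core and the ETS site occurred together in 5 of them. The windows were also richer in G and C, with a median of 57.33% against 52.67% for all windows. A match is a description of letters, not evidence of binding.

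The 120 bases upstream of the start are shown for 7 genes whose nascent RNA was lower at 45 min of LPS, 5 with a motif in this stretch and 2 with none. Capitals mark the motif, on either strand. In the first 3 it is the ETS site, and in Atp5g2 and Atp5k it is the NRF1 core read on both strands, which overlap because the core is nearly palindromic. All 7 genes lie on the minus strand, and each sequence is written in the direction of transcription.
Ndufs3, chr2:90904722-90904841, minus strand: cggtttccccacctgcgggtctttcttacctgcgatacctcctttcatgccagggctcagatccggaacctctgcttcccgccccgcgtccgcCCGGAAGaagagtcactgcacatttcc
Atp5h, chr11:115419920-115420039, minus strand: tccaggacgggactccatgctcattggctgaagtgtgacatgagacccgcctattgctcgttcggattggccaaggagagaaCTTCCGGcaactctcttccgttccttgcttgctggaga
Sdhd, chr9:50603850-50603969, minus strand: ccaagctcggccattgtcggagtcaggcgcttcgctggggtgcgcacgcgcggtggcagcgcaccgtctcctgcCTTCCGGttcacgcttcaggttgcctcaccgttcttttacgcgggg
Atp5g2, chr15:102671048-102671167, minus strand: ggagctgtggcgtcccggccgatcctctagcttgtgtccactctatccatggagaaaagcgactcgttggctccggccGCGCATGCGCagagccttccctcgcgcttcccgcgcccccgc
Atp5k, chr5:108434400-108434519, minus strand: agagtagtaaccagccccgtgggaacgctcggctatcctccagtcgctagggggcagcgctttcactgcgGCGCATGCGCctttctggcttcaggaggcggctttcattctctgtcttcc
Ndufs5, chr4:123718187-123718306, minus strand: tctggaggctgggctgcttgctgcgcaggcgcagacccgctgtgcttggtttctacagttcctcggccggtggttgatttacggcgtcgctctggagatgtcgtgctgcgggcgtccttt
Ndufb8, chr19:44555443-44555562, minus strand: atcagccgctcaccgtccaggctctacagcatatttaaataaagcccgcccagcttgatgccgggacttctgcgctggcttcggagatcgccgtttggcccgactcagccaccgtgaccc
The ETS site lies at bases -27 to -21 from the start in Ndufs3, -38 to -32 in Atp5h and -46 to -40 in Sdhd. The NRF1 core covers -42 to -33 in Atp5g2 and -50 to -41 in Atp5k. These 7 were picked with their values known.

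Levels are log2 of the deposited array intensity, and a change is the difference of 2 group means with the standard error (SE) from limma, a linear model fitted to all 12 arrays. A gene is said to have risen, fallen or been called where the Benjamini-Hochberg adjusted p over all 19938 genes was below 0.05. The 95th percentile of 1027 olfactory receptor genes on each array, 6.18 to 6.8, served as background level. Of the 81 genes, 64 were above it on all 12 arrays, 13 on some and 4 on none. The 2 arrays of a group correlated across genes at 0.9806 to 0.9891. All 10 macrophage markers examined were above background on every array, as were 0 of 8 neutrophil, 0 of 5 dendritic cell and 0 of 4 B cell markers, and Prss34 of 9 mast cell and basophil markers, Cd3e of 5 T and NK cell markers and Col1a1 and Col1a2 of 6 fibroblast markers. The part of other cell types in the results was not tested. A fixed mass of RNA entered each array, so changes are relative to the other genes, and fewer cells of a type and less RNA per cell cannot be told apart.

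In nascent RNA, 19 of the 81 genes (23.5%) were lower after 45 min of LPS than in unstimulated cells and 0 were higher. Over all genes tested 5.88% were lower and 3.05% higher. The median difference of the 81 genes was -0.51, at -0.44 in experiment 1 and -0.56 in experiment 2, beside 0.11 for all genes. Among the 12175 genes whose mean reached background in any group, the median was -0.03, and 1157 were lower and 549 higher. With limma, 40 of the 81 had an unadjusted p under 0.05, beside 4578 of all 19938 genes. The 8 genes with the largest falls were of complex I (Ndufs5, Ndufs3, Ndufb8, Ndufv1, Ndufb5), complex II (Sdhd) and complex V (Atp5g2, Atp5h), and 1 gene each of complexes III and IV fell. In 59 genes the difference was below 0 in both experiments and in 8 above 0, beside 5207 and 7873 of all 19938 genes.

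The arrays differed in the spread of their values. The interquartile range over all genes was 2.64 and 3.00 on the unstimulated nascent arrays and 2.50 and 2.24 on the 45 min nascent arrays. At 270 min it was 2.30 and 2.25 on the nascent arrays. On the total arrays it was 2.91 and 2.88 unstimulated, 2.84 and 3.02 at 45 min, and 2.73 and 2.32 at 270 min. Quantile scaling of all 12 arrays gives every array the same spread. With it, 15 genes were lower and 0 higher in nascent RNA at 45 min, beside 4.75% and 3.2% of all genes. The median was -0.38, beside 0.02 for all genes. Leaving out 1 array left 4 genes lower without unstimulated experiment 2, 5 without 45 min experiment 1 and 6 without 45 min experiment 2. Ndufs3 and Atp5h were called with each of these arrays left out and under every other setting tried. Blocking on the experiment gave 28 lower genes, beside 9.22% of all genes.

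**Figure D1:**
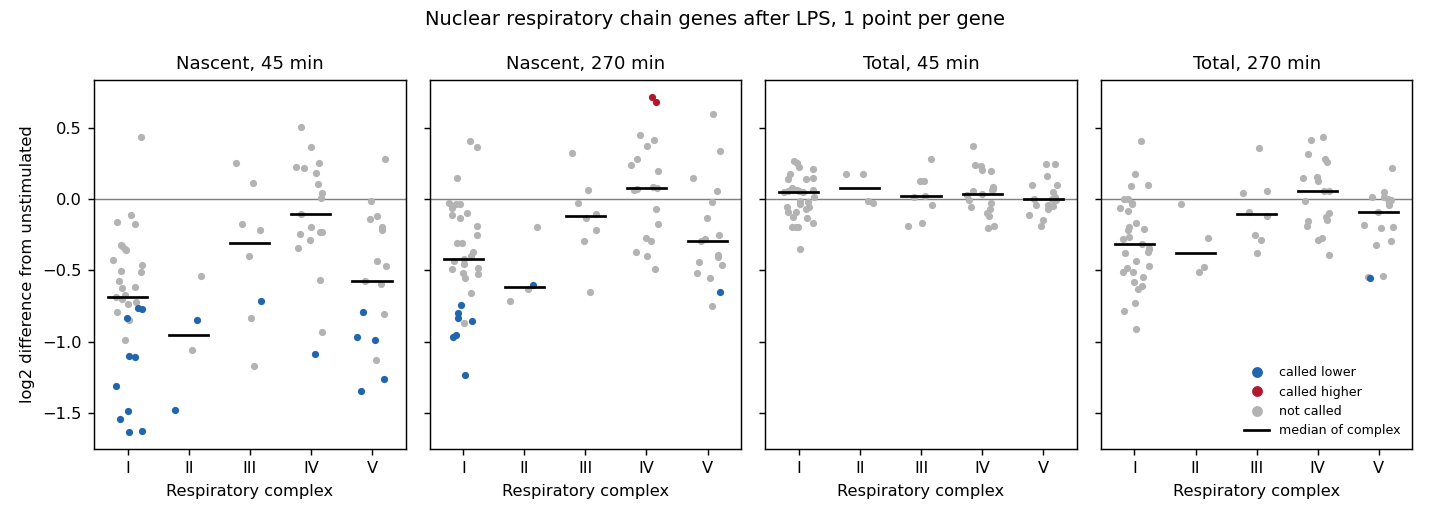
Log2 difference from unstimulated cells (vertical axis) for each of the 81 genes by respiratory complex (horizontal axis), in nascent and total RNA at 45 and 270 min of LPS; blue and red points are called lower and higher, grey points are not called, and bars are medians. The blue points of nascent RNA at 45 min lie mostly in complexes I, II and V, where the medians are -0.69, -0.95 and -0.58, and total RNA at 45 min lies around 0.

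In complex I, 10 of 33 genes fell in nascent RNA at 45 min, with a median of -0.69, and 32 of the 33 differences were below 0. Ndufs3, a core subunit of the arm that reaches into the matrix, read 9.62 and 9.79 in unstimulated nascent RNA (experiments 1 and 2), 8.11 and 8.05 at 45 min, and 9.45 and 9.45 at 270 min. The 45 min arrays were far below all the others, and the 270 min arrays were just below the unstimulated ones. Its fall at 45 min was -1.63 ± 0.20 (SE, n = 2 per group, limma adjusted p = 0.000193), to 32.4% of the unstimulated level. Total RNA of Ndufs3 read 10.35 and 10.33, 10.22 and 10.12, and 10.10 and 9.63 at 0, 45 and 270 min, and its time differences were not called.

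Ndufs5, an accessory subunit, had nascent values of 8.53 and 8.39, then 7.15 and 6.51, then 7.40 and 7.04. Both stimulated groups were below the unstimulated arrays without overlap, and the 45 min array of experiment 2 was below background. The falls were -1.63 ± 0.29 at 45 min (limma adjusted p = 0.00345) and -1.24 ± 0.29 at 270 min (limma adjusted p = 0.00686). Each call was lost without experiment 2 of the stimulated group. A probe set shared with its pseudogene, outside the 81 genes, gave -1.59 and -0.78, so the signal of copy and gene may not be fully separated.

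Ndufb8, an accessory subunit of the membrane arm, read 7.78 and 8.39 in unstimulated nascent RNA, 6.34 and 6.75 at 45 min, and 7.12 and 7.14 at 270 min. At 45 min neither array was above background, so the fall of -1.54 ± 0.31 (limma adjusted p = 0.00736) is given as at least 2.76-fold. That bound compares the unstimulated mean with the higher of the background level and the gene's own value on each dim array. At 270 min the difference was -0.95 ± 0.31 (limma adjusted p = 0.041), a call that was lost under quantile scaling.

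The other complex I genes that fell at 45 min were Ndufv1 (-1.48), which carries the NADH site, Ndufs1 (-0.77), an iron-sulfur subunit, and the accessory subunits Ndufb5 (-1.31), Ndufa8 (-1.11), Ndufa9 (-1.10), Ndufc2 (-0.83) and Ndufa3 (-0.77). Ndufb5 read 8.02 and 8.37 unstimulated, 6.82 and 6.95 at 45 min, and 7.71 and 7.70 at 270 min, and the 3 groups did not overlap. Ndufv1 read 7.73 and 8.54, then 6.81 and 6.50, then 7.26 and 7.27, with unstimulated arrays 0.82 apart and 1 of the 45 min arrays below background. Ndufa8, a twin cysteine subunit, read 8.82 and 9.60, then 8.01 and 8.20, then 8.51 and 8.59. Its 45 min arrays were the lowest of the nascent arrays. The 23 complex I genes that were not called ran from -0.99 to 0.43, and 22 of them were below 0. Ndufa10, one of the 3 brightest of the complex, was among them at -0.51 ± 0.25.

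All 4 genes of complex II had nascent values below 0 at 45 min, and 2 were called. Sdha, the flavoprotein that oxidises succinate, read 10.37 and 10.20 unstimulated, 9.53 and 9.34 at 45 min, and 9.74 and 9.62 at 270 min. Both stimulated groups lay below the unstimulated arrays, and the differences were -0.85 ± 0.19 (limma adjusted p = 0.0151) and -0.60 ± 0.19 (limma adjusted p = 0.0388). Sdhd, a membrane anchor, read 8.81 and 9.73, then 7.63 and 7.96, then 8.63 and 8.48. Its fall at 45 min was -1.48 ± 0.33 (limma adjusted p = 0.0139), and the 270 min arrays were just below the lower unstimulated array. Sdhb, the iron-sulfur subunit, was at -1.06 ± 0.33 (limma adjusted p = 0.063), and Sdhc, the other anchor, at -0.54 ± 0.22 (limma adjusted p = 0.157). The unstimulated Sdhb arrays, at 7.73 and 8.90, were more than 1 log2 unit apart.

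In complex III, Uqcrc2, a core subunit, was the 1 gene of 8 that fell at 45 min, and the median was -0.31. It read 9.67 and 9.77 unstimulated, 8.89 and 9.12 at 45 min, and 9.42 and 9.59 at 270 min. The fall of -0.71 ± 0.19 (limma adjusted p = 0.033) was lost when any one of the 4 arrays compared was left out. Uqcrc1, its partner, had a larger difference of -1.17 that was not called, with unstimulated arrays of 8.64 and 9.82. Uqcrb and Uqcrh, small subunits and the other brightest genes of the complex, were at 0.25 ± 0.30 and -0.17 ± 0.20.

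Complex IV had a median of -0.11 at 45 min, with 10 of 19 differences below 0. Of these 19 genes 8 are isoforms limited to some tissues, most of them dim, with a median of 0.20 and 1 below 0, and the 11 other subunits had a median of -0.24 and 9 below 0. Ndufa4 was the 1 gene that fell. Its nascent values were 9.10 and 9.56 unstimulated, 8.09 and 8.39 at 45 min, and 8.94 and 9.12 at 270 min. The difference at 45 min was -1.09 ± 0.27 (limma adjusted p = 0.023), and the call was lost under quantile scaling. Cox7b, a small subunit, was at -0.93 and not called. Cox4i1 (-0.19 ± 0.22) and Cox5b (-0.24 ± 0.27), both subunits of the assembled enzyme in most tissues, and Cox7a2l (-0.23 ± 0.22), which takes part in joining complexes III and IV, were not called. Whether complex IV differed from the other complexes was not tested.

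In complex V, 5 of 17 genes fell at 45 min, with a median of -0.58. Atp5h, the d subunit of the peripheral stalk, read 9.81 and 10.19 in unstimulated nascent RNA, 8.72 and 8.76 at 45 min, and 9.30 and 9.40 at 270 min. The 3 groups did not overlap, with 45 min lowest. The fall at 45 min was -1.26 ± 0.20 (limma adjusted p = 0.00135), and its 3 probe sets ranged from -1.27 to -1.19. Atp5g2, one of 3 genes for the rotor ring subunit c, read 9.61 and 10.42, then 8.40 and 8.94, then 9.29 and 9.70. Its fall was -1.34 ± 0.28 (limma adjusted p = 0.00859), while Atp5g3, which encodes the same mature protein, had 9.49 and 10.42 against 9.53 and 10.35 and was not called.

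Atp5k, the e subunit at the membrane, read 8.04 and 8.49 unstimulated, 7.27 and 7.33 at 45 min, and 8.33 and 8.49 at 270 min. Its 45 min arrays were lowest, and the unstimulated and 270 min arrays overlapped. The fall at 45 min was -0.97 ± 0.22 (limma adjusted p = 0.0132). Atp5j2, the f subunit (-0.99), and Atp5c1, the central stalk gamma subunit (-0.79), also fell. Atp5a1 and Atp5b, the alpha and beta subunits of the catalytic head and the other brightest genes of the complex, were at -0.19 ± 0.22 and -0.58 ± 0.25 and were not called. For both, experiments 1 and 2 differed. Atp5a1 had opposite signs, at 10.70 and 11.39 unstimulated against 10.82 and 10.88 at 45 min. Atp5b was below 0 in both, at -0.10 in experiment 1 and -1.05 in experiment 2.

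**Figure D2:**
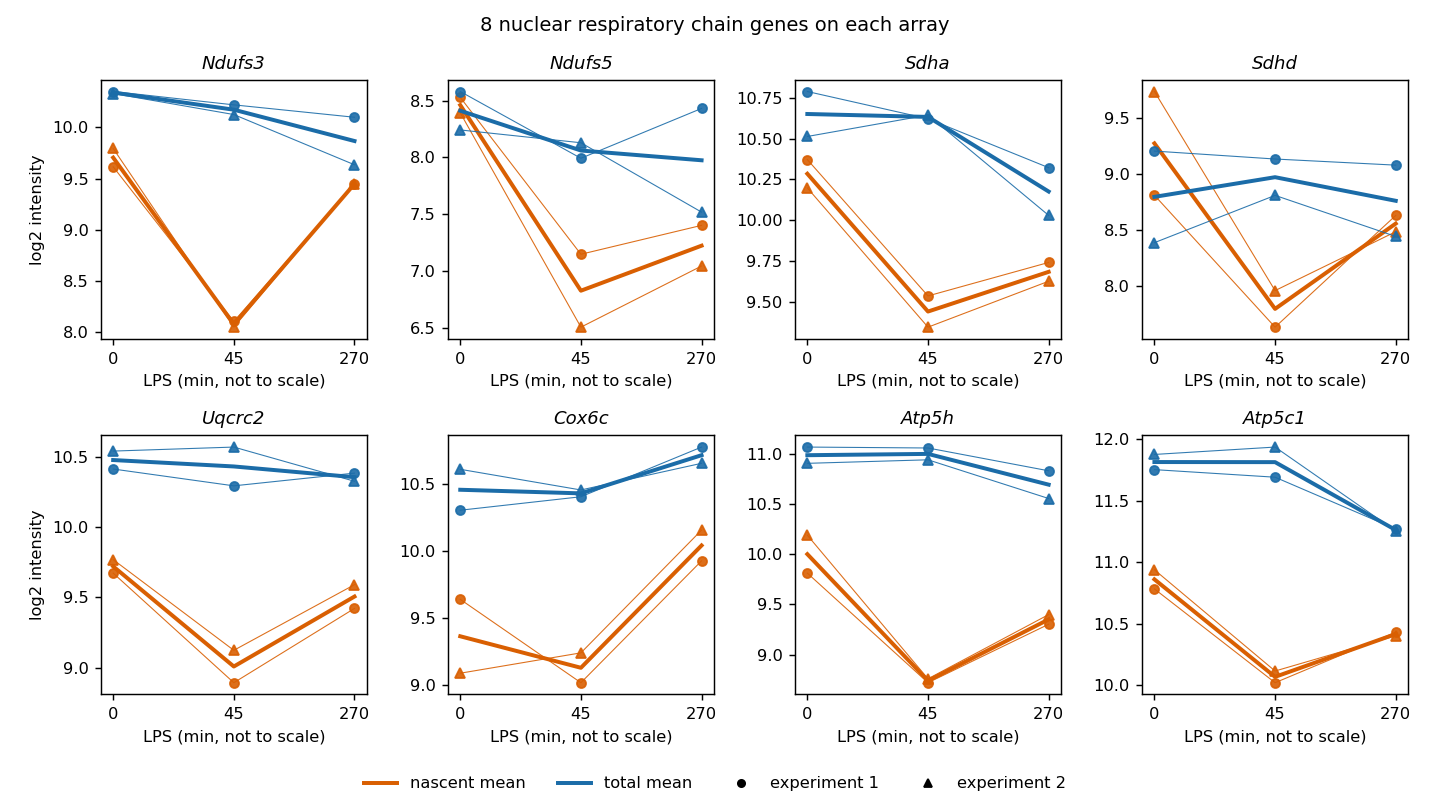
Log2 intensity (vertical axis, a separate range for each gene) at 0, 45 and 270 min of LPS for 8 genes of complexes I, II, III, IV and V; orange is nascent and blue total RNA, circles and triangles are experiments 1 and 2, and thick lines join the means. Nascent Ndufs3 drops from 9.62 and 9.79 to 8.11 and 8.05 and is back at 9.45 at 270 min, while its total RNA stays between 9.63 and 10.35.

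At 270 min of LPS, 9 of the 81 genes (11.1%) were lower and 2 (2.47%) higher in nascent RNA than in unstimulated cells. Over all genes 14.2% were lower and 8.87% higher, so these shares were below the background. Of the 9 lower genes, 7 belonged to complex I. The median was -0.28, at -0.11 in experiment 1 and -0.44 in experiment 2, beside 0.12 for all genes. Among the 12175 genes that reached background in any group it was -0.13, with 2782 lower and 1332 higher. With quantile scaling over all arrays the median of the 81 genes was -0.08. In 43 genes the difference was below 0 in both experiments and in 13 above 0, beside 6138 and 9371 of all 19938 genes. The count of lower genes was 18 without unstimulated experiment 1, 1 without unstimulated experiment 2, 2 without 270 min experiment 1 and 0 without 270 min experiment 2, and 14 with the experiment as a block. With the block 17% of all genes were lower. None of the 11 calls was made with each array left out.

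Besides Ndufs5 and Ndufb8, the complex I genes that fell at 270 min were Ndufs7 (-0.97), an iron-sulfur subunit, and the accessory subunits Ndufb11 (-0.86), Ndufb10 (-0.83), Ndufa13 (-0.80) and Ndufa2 (-0.74). Ndufb10 and Ndufa2 were below background on both 270 min arrays, so their falls are at least 1.21-fold and at least 1.44-fold. Ndufs7 read 8.15 and 8.91 unstimulated, 7.58 and 7.90 at 45 min, and 7.63 and 7.49 at 270 min. Its values stayed at the 45 min level, and its fall in experiment 2 (-1.42) was more than that in experiment 1 (-0.52). Ndufb11 read 7.93 and 8.54, then 7.47 and 7.55, then 7.44 and 7.33, also without overlap between unstimulated and stimulated arrays. In complexes II and V, Sdha (-0.60) and Atp5h (-0.65 ± 0.20, limma adjusted p = 0.0291) were still lower, and in complex III 0 of 8 genes were called. Of these 8, 0 had a limma unadjusted p under 0.05, beside 20 of the 81 genes and 7154 of all 19938 genes.

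Both genes that were higher at 270 min belonged to complex IV. Cox6c, a small subunit, read 9.64 and 9.09 in unstimulated nascent RNA, 9.02 and 9.24 at 45 min, and 9.93 and 10.16 at 270 min. Its 270 min arrays were the highest of the nascent arrays, and the rise was 0.68 ± 0.22 (limma adjusted p = 0.04), lost under quantile scaling. Cox6a2, the isoform of subunit 6a of heart and skeletal muscle, read 7.02 and 6.92, then 7.14 and 7.16, then 7.60 and 7.78. The rise was 0.72 ± 0.17 (limma adjusted p = 0.0077) at levels little above the background. Without unstimulated experiment 2 or without 270 min experiment 2, 0 genes were higher.

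From 45 to 270 min of LPS, 6 of the 81 genes (7.41%) rose in nascent RNA and 0 fell, beside 6.74% and 10% of all genes. With limma, 15 differences of either sign had an unadjusted p under 0.05, beside 4990 of all 19938 genes. The median was 0.30, beside 0.01 for all genes and -0.03 for the 12175 genes that reached background in any group. In 48 genes the difference was above 0 in both experiments and in 7 below 0, beside 7074 and 6572 of all 19938 genes. Ndufs3 rose by 1.37 ± 0.20 (limma adjusted p = 0.000218) and Atp5k by 1.11 ± 0.22 (limma adjusted p = 0.00222), and both were called with each array left out and under every other setting. Ndufb5 (0.82), Atp5h (0.61), Cox6c (0.91) and Cox6a2 (0.54) also rose. The count was 2 or 3 when any of the 4 arrays was left out: 2 without 45 min experiment 1 or 270 min experiment 2, and 3 without the other two. It was 11 with quantile scaling over all arrays, 10 without dim genes and 16 with the experiment as a block. The shares of all genes tested in these settings were 8.41%, 11.4% and 8.61%. The 45 min arrays are shared with the comparison at 45 min, so a low 45 min value enters both.

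In total RNA at 45 min, 0 of the 81 genes were lower and 0 higher (limma), and 0 had an unadjusted p under 0.05. Over all genes 0.0201% were lower and 0.662% higher, and 608 of 19938 had a limma unadjusted p under 0.05. The differences ran from -0.35 to 0.37 with a median of 0.01. Sdha read 10.79 and 10.51 in unstimulated total RNA and 10.62 and 10.65 at 45 min, and Atp5h read 11.06 and 10.90 against 11.06 and 10.94. For both the arrays of the 2 times overlapped. SEs were 0.16 to 0.50, and 0 calls do not show that these genes were unchanged.

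In total RNA at 270 min, 1 gene (1.23%) was lower and 0 higher, beside 12% and 7.02% of all genes, so fewer of the 81 genes were called than of all genes. For limma, 13 of the 81 had an unadjusted p under 0.05, beside 5927 of all 19938 genes. The median was -0.17, at -0.01 in experiment 1 and -0.35 in experiment 2, beside 0.07 for all genes. Among the 12175 genes that reached background in any group it was -0.11, with 2349 lower and 1212 higher. Atp5c1, the gamma subunit that turns with the rotor, read 11.75 and 11.88 unstimulated, 11.69 and 11.94 at 45 min, and 11.27 and 11.25 at 270 min. The 270 min arrays were below all the others, and the fall was -0.55 ± 0.17 (limma adjusted p = 0.034), to 68.1% of the unstimulated level. Its nascent values of 10.78 and 10.94, 10.02 and 10.11, and 10.43 and 10.40 were already lowest at 45 min.

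The total RNA call of Atp5c1 was lost when any of the 4 arrays was left out. Without 270 min experiment 1, 5 genes were lower, and without unstimulated experiment 2 or 270 min experiment 2, 0 were. Quantile scaling over all arrays gave 3 lower and 1 higher, beside 10.1% and 7.14% of all genes. The experiment as a block gave 8 lower, beside 15% of all genes. From 45 to 270 min, Atp5c1 fell by 0.55 ± 0.17 (limma adjusted p = 0.0363) and Cox6a2 rose by 0.63 ± 0.17 (limma adjusted p = 0.0198), 1 gene each way (1.23%) beside 11.5% and 6.64% of all genes. Total Cox6a2 read 6.92 and 6.88 unstimulated, 6.77 and 6.63 at 45 min, and 7.18 and 7.48 at 270 min. Without 45 min experiment 2 or 270 min experiment 2 neither gene was called, 3 and 5 genes were lower without 45 min or 270 min experiment 1, and 4 were lower with the experiment as a block.

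Whether the nascent response differed from the total response was tested on nascent minus total values, 1 such value per culture. At 45 min, 6 of the 81 genes (7.41%) responded more negatively in nascent than in total RNA and 0 more positively, beside 0.567% and 0.476% of all genes. The median of this difference of responses was -0.57, at -0.54 and -0.59 in experiments 1 and 2, beside 0.09 for all genes. With limma, 35 of the 81 had an unadjusted p under 0.05, beside 2368 of all 19938 genes. The 6 called genes were Ndufb8 (-1.61 ± 0.30), Ndufs3 (-1.46 ± 0.29), Ndufb5 (-1.36 ± 0.30), Atp5g2 (-1.44 ± 0.28), Atp5h (-1.27 ± 0.28) and Atp5j2 (-1.23 ± 0.29). Their limma adjusted p ran from 0.012 to 0.0443. For Atp5j2 nascent RNA read 8.93 and 9.02 unstimulated and 7.88 and 8.09 at 45 min, and total RNA 10.21 and 10.72 against 10.63 and 10.79. Nascent values fell without overlap while total values overlapped.

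None of the 6 differences was called with quantile scaling, with the fractions unpaired or without either 45 min culture. The median was then -0.40 with quantile scaling over all arrays. Without an unstimulated culture 25 (experiment 1) or 10 (experiment 2) genes were lower, without either 270 min culture 10, and 22 with the experiment as a block. Of all genes 4.09% were lower with the block and 0.567% without it. At 270 min, 0 of the 81 genes differed between the 2 fractions (limma), beside 0.722% lower and 0.12% higher of all genes. With limma, 3 of the 81 had an unadjusted p under 0.05, beside 1411 of all 19938 genes. The median was -0.04. Without unstimulated experiment 1, 5 were lower and 1 higher.

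In unstimulated cells, 46 of the 81 genes (56.8%) had a lower level in nascent than in total RNA and 0 a higher one, beside 8.42% and 7.58% of all genes. Among the 12175 genes that reached background in any group, 1648 were lower and 1477 higher. With limma, 55 of the 81 had an unadjusted p under 0.05, beside 4950 of all 19938 genes. The median difference was -0.75, beside 0.01 for all genes, and complexes I and V had medians of -0.84 and -0.80. Nascent over total RNA reflects synthesis against accumulated RNA, on arrays scaled apart from the amount of RNA, so the value ranks a gene among others and is no rate. Counts were 21 of 33 genes in complex I, 2 of 4 in complex II, 3 of 8 in complex III, 10 of 19 in complex IV and 10 of 17 in complex V. In 63 genes the nascent minus total value was below 0 in both experiments and in 5 above 0, beside 5930 and 6153 of all 19938 genes.

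The 4 lowest values were those of complex IV subunits. Cox6a1, the widely expressed isoform of subunit 6a, read 7.82 and 8.22 in nascent and 9.77 and 9.99 in total RNA, a difference of -1.86 ± 0.21 (limma adjusted p = 4.79e-06). Cox7b read 7.65 and 8.08 against 9.11 and 10.14 (-1.76), Ndufa4 9.10 and 9.56 against 10.77 and 11.38 (-1.75), and Cox4i1 8.32 and 8.42 against 10.08 and 10.07 (-1.71). In each of these 4 genes both nascent arrays were below both total arrays. Complex I followed with the small membrane subunits Ndufb6 (-1.68), Ndufa1 (-1.66) and Ndufb11 (-1.54), and complex V with Atp5md (-1.50), Atp5j2 (-1.49) and Atp5d (-1.42).

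The catalytic subunits Atp5a1 (-0.31 ± 0.20) and Atp5b (-0.32 ± 0.20) were not called, and in complex II Sdhc (-0.80) and Sdhb (-0.77) were lower. Sdhd had the highest value, 0.48, with nascent arrays at 8.81 and 9.73 and total arrays at 9.20 and 8.39, so that experiments 1 and 2 had opposite signs. In complex III, Uqcrb (-1.28), Uqcrh (-0.92) and Uqcrc2 (-0.76) were lower. Of the 46 calls, 27 were made under every setting and with each culture left out, and the count ranged from 32 to 52 over all settings. Without unstimulated experiment 1 the median was -0.54.

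**Figure D3:**
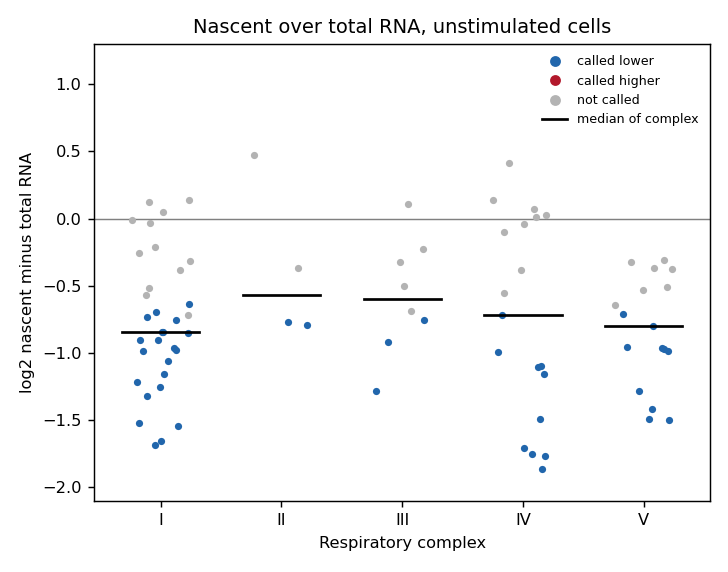
Log2 nascent minus total RNA in unstimulated cells (vertical axis) for each of the 81 genes by respiratory complex (horizontal axis); blue points are called lower, grey points are not called, and bars are medians. Complex IV spans the widest range, from -1.86 (Cox6a1) to 0.42 (Cox8b), and no point is called higher.

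Isoforms of complex IV that are known from muscle, testis or lung were measured as well. Cox6b2, Cox7b2, Cox8b and Ndufa4l2 were below background on all 12 arrays, and Cox7a1, the muscle isoform of subunit 7a, was above it on 4. Cox4i2, the lung and low oxygen isoform of subunit 4, was above it on 10 arrays and ranged from 6.39 to 6.97, with nascent differences of 0.37 ± 0.16 at 45 min and 0.37 ± 0.16 at 270 min that were not called. Cox8c, known from testis, ranged from 6.77 to 7.42 and was not called in any comparison. Of these isoforms only Cox6a2 was called.

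**Figure D4:**
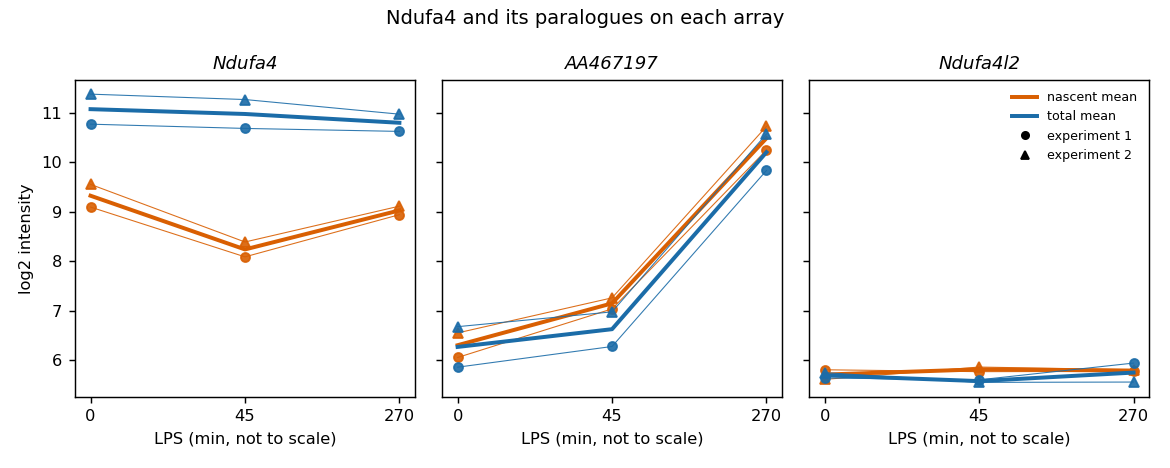
Log2 intensity (vertical axis) at 0, 45 and 270 min of LPS for Ndufa4, AA467197 and Ndufa4l2; orange is nascent and blue total RNA, circles and triangles are experiments 1 and 2, and thick lines join the means. AA467197 climbs from 6.06 and 6.55 to 10.25 and 10.73 in nascent RNA, while Ndufa4l2 stays between 5.55 and 5.94.

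AA467197, the mouse gene for NMES1, a paralogue of Ndufa4, is not one of the 81 genes. It had the largest change of this family. Nascent RNA read 6.06 and 6.55 unstimulated, 7.04 and 7.26 at 45 min, and 10.25 and 10.73 at 270 min, and total RNA 5.86 and 6.68, 6.28 and 6.98, and 9.84 and 10.58. The 270 min arrays were above all the others in both fractions, and 1 of the 2 unstimulated arrays of each fraction was below background. At 270 min it was higher by 4.19 ± 0.33 in nascent (at least 16.1-fold, limma adjusted p = 7.15e-07) and by 3.94 ± 0.33 in total RNA (at least 13.4-fold, limma adjusted p = 1.97e-06). Ndufa4 itself, at 10.77 and 11.38 in unstimulated and 10.63 and 10.98 in 270 min total RNA, was not called in total RNA, and Ndufa4l2 stayed below background.

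Other genes of the pathway were taken from lists of assembly factors, subunits with other symbols, regulators and the TCA cycle. Of 42 measured assembly factors of 47, 14 (33.3%) were lower and 0 higher in nascent RNA at 45 min, 14 (33.3%) lower and 4 (9.52%) higher at 270 min, and 11 (26.2%) lower and 5 (11.9%) higher in total RNA at 270 min. Over all genes the shares were 5.88% and 3.05%, 14.2% and 8.87%, and 12% and 7.02%, in the same order. Tmem126b, a complex I assembly factor, was lower in nascent RNA at 45 min (-1.56 ± 0.17, with 1 of 2 arrays below background) and at 270 min (at least 2.69-fold, with both arrays below background) and in total RNA at 270 min (-1.25 ± 0.17). Sco1, a copper chaperone of complex IV, read 8.35 and 8.69 unstimulated, 7.08 and 7.41 at 45 min, and 9.35 and 9.61 at 270 min in nascent RNA. It was lower at 45 min (-1.28 ± 0.22) and higher at 270 min (0.96 ± 0.22). Coa5, a complex IV assembly factor, was higher at 270 min in nascent (1.86 ± 0.21) and total RNA (1.47 ± 0.21), and Cox17, which delivers copper to Sco1, also rose in both (0.66 and 1.22).

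The list of subunits with other symbols had 4 measured genes. Ndufab1, the acyl carrier subunit of complex I, read 8.62 and 8.67, then 7.40 and 7.32, then 8.41 and 8.24 in nascent RNA and fell by 1.29 ± 0.20 at 45 min (limma adjusted p = 0.0014). Atpif1, the inhibitor of complex V, fell by 1.07 ± 0.26. Cycs, cytochrome c, the carrier between complexes III and IV, rose at 270 min in nascent (1.95 ± 0.42) and total RNA (1.92 ± 0.42). Its total RNA read 8.70 and 9.95 unstimulated and 11.02 and 11.46 at 270 min, with unstimulated arrays more than 1 unit apart.

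Of 18 regulators of mitochondrial biogenesis, 4 (22.2%) were lower and 1 (5.56%) higher in nascent RNA at 45 min, 3 (16.7%) lower and 0 higher at 270 min, and 3 (16.7%) lower and 1 (5.56%) higher in total RNA at 270 min. At 270 min the lower shares were near those of all genes, 14.2% and 12%. Tfam, which packages mitochondrial DNA and takes part in starting its transcription, fell in nascent RNA by 1.36 ± 0.28 at 45 min. Twnk, the mitochondrial helicase, fell by 1.23 ± 0.26, and both genes had 1 of 2 arrays below background at 45 min. Gabpb1, a subunit of GABP, rose by 0.78 ± 0.21 at 45 min and by 1.01 ± 0.21 in total RNA at 270 min. Of 16 measured TCA cycle genes of 17, 4 (25%) were lower and 0 higher at 45 min, 5 (31.2%) lower and 1 (6.25%) higher at 270 min in nascent RNA, and 4 (25%) lower and 0 higher in total RNA at 270 min, against the same shares of all genes. Idh3g, a regulatory subunit of isocitrate dehydrogenase, was lower by 1.61 ± 0.26 and 1.48 ± 0.26 in nascent RNA at 45 and 270 min, and Fh1, fumarase, by 0.99 ± 0.24 and 1.07 ± 0.24.

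The promoter motifs can be set beside the nascent values at 45 min. Of 28 genes with any of the 3 motifs 8 were lower, with a median of -0.59, and of 38 with none 9 were lower, with a median of -0.55. The 10 genes with the NRF1 core had 3 lower and a median of -0.91, against 14 of 56 and -0.57. These splits were not tested.

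Of the 81 genes, 16 had several probe sets. Their nascent differences at 45 min lay within 0.50 of each other for every gene, and only those of Ndufc1 differed in sign, as did those of Cox7a2l and Uqcr11 at 270 min. Genes with many processed copies in the genome, such as Atp5l with 6 probe sets and Atp5h and Uqcrb with 3 each, may share signal with those copies. Probe sets that name both Ndufb4 and Ndufb4b gave -1.25 and -1.16 in nascent RNA at 45 min, and those that name Cox7c with a predicted gene gave -0.36 to -0.13.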

How the data were processed

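Nascent and total RNA were measured on 12 Affymetrix Mouse Gene ST 1.0 arrays. The authors deposited linear intensities, and the submitters' processing notes name RMA and Affymetrix Expression Console. No source used here gives their versions or says if the 12 arrays went through normalisation jointly. RMA as commonly run gives arrays a common distribution, which would hide a shift shared by all genes. The gene values used here did not share a distribution, with interquartile ranges from 2.24 to 3.02 between arrays.

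The values were linear, so log2 was taken. Of 35557 probe sets, 21789 had 1 symbol in the platform annotation, 1621 several and 12147 no entry, and 19938 symbols were tested. The members and lists were chosen with earlier results of these data known. Named genes are the 3 brightest members of each complex, up to 3 called members with the largest change per complex, comparison and direction, the complex II subunits, Ndufa4 and its paralogues, tissue-limited isoforms, Cox4i1, Cox7a2l and the most changed genes of the other lists. Cox17, Fh1, Atp5g3, Uqcrc1, Cox7b, Ndufv1, Ndufa9, Cox5a, Ndufaf3, Ndufaf5, Suclg2 and others given with single values were named after their values were seen. The mitochondrial-encoded genes were not analysed here.

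Time comparisons were fitted with 1 mean per group (residual degrees of freedom 6, prior 7.4) in limma 3.58.1 under R 4.3.3, with an intensity trend. Comparisons of nascent with total RNA used the nascent minus total difference of each of 6 cultures (residual degrees of freedom 3, prior 16.5). P values are two-sided and adjusted by Benjamini-Hochberg over 19938 genes. Scripts in Python 3.11.15 (numpy 2.4.6, pandas 2.3.3, matplotlib 3.10.9) prepared tables and figures. The fit was tested on simulated data. The experiment number pairs arrays, since the labels name it as an independent experiment. Deviations of same-numbered arrays from their group means correlated at -0.295 to 0.645 over 15 pairs of groups, over 0.1 in 10. With 2 arrays a group the precision is limited. Promoter sequences are RefSeq's, and 15 members had no entry.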

Additional observations from a re-analysis of the deposited data

Results flagged for a closer look

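In 6 genes the response to LPS at 45 min differed between nascent and total RNA by a test of the difference itself. The nascent change was more negative than the total one for Ndufb8 (-1.61), Ndufs3 (-1.46), Atp5g2 (-1.44), Ndufb5 (-1.36), Atp5h (-1.27) and Atp5j2 (-1.23). Each of these values had the same sign in both experiments. Their total RNA changes at 45 min ran from -0.17 (Ndufs3) to 0.24 (Atp5j2), and none was called. Ndufb8 was below background on both 45 min nascent arrays. None of the 6 was called with quantile scaling, as given above.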

How the results depend on the processing

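No result changed direction as a call under any setting. Of 4392 values of named genes under alternatives, 4141 kept direction and side of the threshold, 150 lost the call and 101 gained one. Causes were not tested.

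With quantile scaling over all arrays, and within each fraction, the median member difference was -0.38 and -0.37 in nascent RNA at 45 min, -0.038 and -0.035 in total RNA at 45 min, -0.40 and -0.38 for the difference of responses at 45 min and 0.11 and 0.10 at 270 min. The medians in total RNA at 45 min and of the responses at 270 min thereby changed sign. Under these scalings 11 and 10 members rose in nascent RNA from 45 to 270 min, 3 and 3 were lower and 1 and 1 higher in total RNA at 270 min, and 0 and 0 differed between responses at 45 min. Over all genes that last test gave 113 lower and 95 higher, and 18 lower and 56 higher with quantile scaling over all arrays. The shares of all genes that rose in nascent RNA from 45 to 270 min were 8.41% and 8.17%. In total RNA at 270 min 10.1% and 10.4% of all genes were lower, and 7.14% and 7.36% higher.

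With the experiment as a replicate block, 14 members were lower in nascent RNA at 270 min, 16 rose from 45 to 270 min, 8 and 4 were lower in total RNA at 270 min against 0 and 45 min, and 22 differed between responses at 45 min. Over all genes the block gave 17% lower, 8.61% higher, 15% and 14.5% lower, and 4.09% lower, in the same order. The block moved no other count of members by over 1.5 times. Without dim genes 10 members rose in nascent RNA from 45 to 270 min, and 3 and 2 were lower in total RNA at 270 min against 0 and 45 min. The shares of the 12175 genes kept were 11.4%, 21.7% and 20.5%. With 32 added before log2, 2 members were lower in total RNA from 45 to 270 min and 3 differed between responses, with a median of -0.49. For total RNA from 45 to 270 min, the mean of all probe sets gave 3 lower and no intensity trend 2, beside 11.6% and 12% of all genes. With the fractions unpaired, 0 differed between responses at 45 min.

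With 1 array or culture left out, the ranges were as follows. In nascent RNA at 45 min 4 to 26 members were lower, with medians of -0.68 to -0.39. At 270 min 0 to 18 were lower and 0 to 2 higher, and from 45 to 270 min 2 to 3 rose, with medians of 0.18 to 0.34. In total RNA the 45 min median was -0.060 to 0.10, 0 to 5 were lower at 270 min, and from 45 to 270 min 0 to 5 were lower and 0 to 1 higher. For the difference of responses at 45 min 0 to 25 were lower and 0 to 1 higher, with medians of -0.65 to -0.52, and at 270 min 0 to 5 and 0 to 1, with medians of -0.15 to 0.026. For nascent over total RNA before LPS 0 to 1 were higher, with medians of -0.79 to -0.54. A group left with 1 array is assumed to vary like the others. Signal near background limits Ndufb2, Ndufb3, Ndufb10 and Ndufa2, which were above it on 7 to 9 arrays.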

Other observations

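The 2 experiments differed for some members in the same direction at every time. In total RNA, 7 members (Atp5g3, Atp5l, Atp5pb, Cox5a, Ndufa1, Ndufb6 and Ndufv2) were higher by more than 0.5 in experiment 2 at all 3 times, and 2 (Atp5d and Ndufv1) were higher by more than 0.5 in experiment 1. Cox5a, a subunit of complex IV, read 8.60, 8.64 and 9.20 in experiment 1 and 10.11, 9.92 and 10.08 in experiment 2 at 0, 45 and 270 min. In nascent RNA, Cox5a and Atp5g3 were higher by more than 0.5 in experiment 2 at all 3 times. These genes were picked after their values were seen, and the difference between experiments was not tested.

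Within the assembly factors, Ndufaf3 of complex I fell in nascent RNA from 45 to 270 min, with a difference of -1.31 ± 0.24 (limma adjusted p = 0.00151), while Ndufaf5, below background on both 45 min arrays, rose by at least 1.22-fold. Ndufaf3 read 7.51 and 8.11 unstimulated, 8.62 and 8.42 at 45 min, and 7.43 and 6.98 at 270 min. Suclg2, a succinyl-CoA ligase subunit of the TCA cycle, read 7.76 and 7.82 in unstimulated nascent RNA, 8.07 and 7.99 at 45 min, and 5.82 and 5.49 at 270 min, where both arrays were below background. These 3 genes were also picked after their values were seen.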
